A study of Mus musculus with 6 samples.

Results

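The bile acid synthesis enzymes described here are 10 genes, Cyp7a1, Cyp8b1, Cyp27a1, Cyp7b1, Cyp2c70, Hsd3b7, Akr1d1, Amacr, Baat and Slc27a5. They were chosen by gene symbol, 10 of the 18720 rows of the deposited tables, and the choice was made with earlier results of these data known. The samples were livers of male C57BL/6 mice that were 1 year old, were placed on a high-fat diet and received R159 or vehicle by intraperitoneal injection, 2 times a week for 12 weeks. R159 is known here only by its code name. Both groups were aged and on the high-fat diet, so no lean or young liver is among the groups compared. Each group has 3 libraries of poly(A) RNA, and nothing in the labels ties a library to a mouse of its own. The p-values therefore reflect only how much these libraries vary, and part of that may be technical. In the GENCODE M21 annotation (GRCm38) Cyp7a1 lies at chr4:6265612-6275633 (minus strand), Cyp7b1 at chr3:18071950-18243338 (minus strand) and Baat at chr4:49489422-49506557 (minus strand). The question is whether mRNA of the enzymes that turn cholesterol into bile acids differed between R159 and vehicle.

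Bile acids are made from cholesterol in hepatocytes, and their synthesis is a main route of cholesterol disposal. In the classic pathway CYP7A1 hydroxylates cholesterol and sets the rate, and CYP8B1 then decides how much cholic acid is formed. In the alternative pathway CYP27A1 in mitochondria oxidises the side chain and CYP7B1 follows. HSD3B7 and AKR1D1 reshape the sterol rings, AMACR inverts a side-chain centre so that peroxisomes can shorten the chain, CYP2C70 makes the muricholic acids of mice, SLC27A5 forms the bile acyl-CoA, and BAAT joins it to taurine or glycine. Returning bile acids shut synthesis down through the receptor FXR (Nr1h4), its target SHP (Nr0b2), and the FGF15 signal read by FGFR4 with beta-klotho (Klb).

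Depth estimated from the deposited values was 51260000 to 55740000 reads in the R159 libraries and 65960000 to 76690000 in the vehicle libraries, with no overlap between the groups. Across genes, Pearson's r with the vehicle libraries was lowest for R159 replicate 2 (0.91 to 0.918, where vehicle libraries gave 0.979 to 0.986 among themselves), and 973 genes were listed at 0 in it. The R159 libraries gave 0.939 to 0.949 among themselves. The median within-group SD on the log2 scale was 0.373 in R159 and 0.203 in vehicle, and the limma fit used below takes a common variance for both groups. Mitochondrially encoded transcripts held 8.42% to 13.6% of the values in R159 and 5.01% to 7.43% in vehicle. The tissue label was borne out by hepatocyte markers, of which Alb, the albumin gene, was the highest, at 2700000 to 4790000. Values are the authors' normalised counts, and log2 fold changes are R159 minus vehicle on the log2(value + 1) scale, with limma's Benjamini-Hochberg adjusted p over all 16594 genes tested and a threshold of 0.05.

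Most of the pathway did not pass the test. All 10 enzymes were above the filter on low values, and limma called 1 of them higher in R159, Baat, the conjugating enzyme, and 0 lower. At an unadjusted p under 0.05 there were 2 higher, Baat and Cyp7b1, and 0 lower. Of all tested genes 12.8% were called higher and 14.2% lower, 27.0% in either direction, so the count of 1 in 10 lies under the share of all genes. Groups did not overlap for 1 of the 10 enzymes, again Baat, against 46.2% of all tested genes. The median log2 fold change of the 10 was 0.24, and that of all tested genes was 0.001. The median transcript length was 2058 nt for the 10 and 3089 nt for all tested genes. With the transcript length trend removed the medians were 0.16 for the 10 and -0.01 for all genes with a length. Of the 10 enzymes 9 had a log2 fold change above 0, from 0.02 to 0.86, and Cyp8b1 had -0.04, but another scaling turned the sign of Hsd3b7, Akr1d1, Slc27a5 and Cyp8b1. Of all calls 47.4% were higher, and 61.4% under upper quartile scaling.

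**Figure D1:**
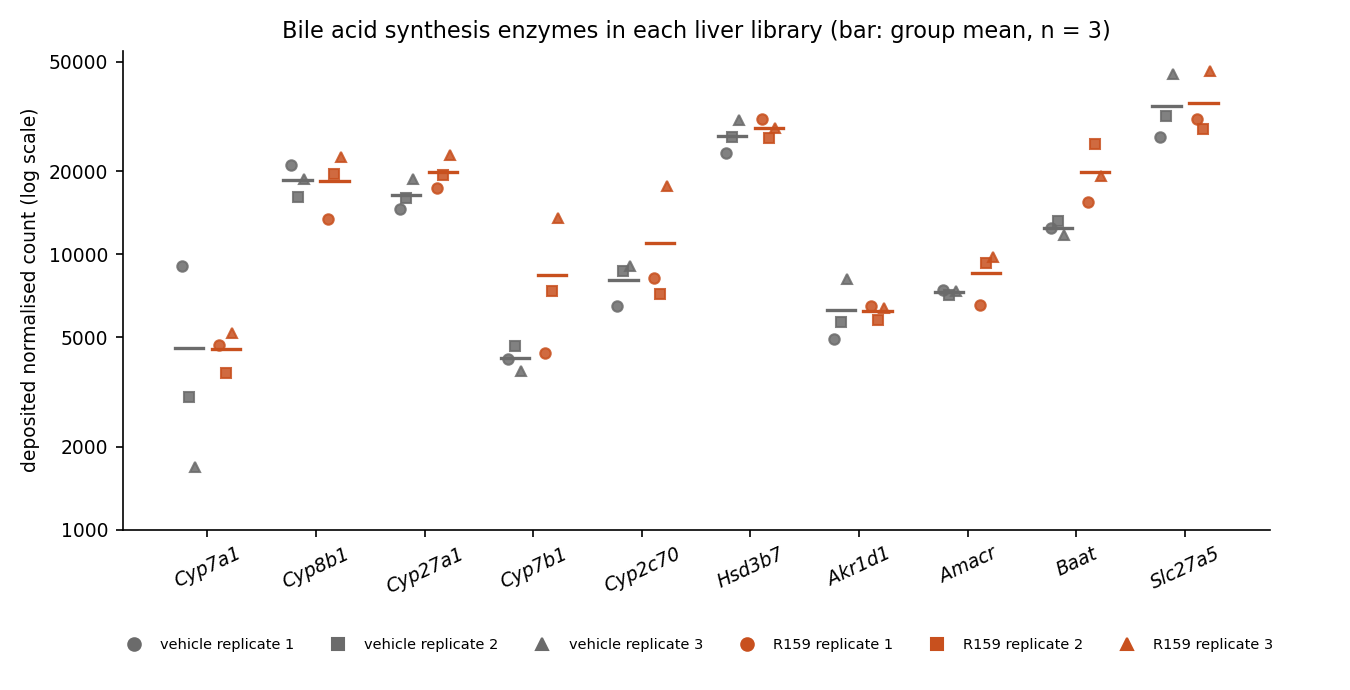
Deposited normalised count (vertical axis, log scale) of each enzyme in each of the 6 liver libraries, with vehicle in grey, R159 in orange, a marker shape for each replicate and a bar for the group mean. The groups are apart only for Baat, at 11739 to 13251 in vehicle and 15484 to 25107 in R159, and the vehicle libraries spread widest for Cyp7a1.

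Divided by the length of the longest coding transcript, the enzymes spanned a wide range of levels. In vehicle the highest were Slc27a5, at 15054 ± 4165 normalised counts per kb (SD, n = 3), and Hsd3b7, at 14718 ± 2059. Cyp8b1 (9568 ± 1252) and Cyp27a1 (8694 ± 1136) came next, then Baat (6437 ± 389) and Cyp2c70 (4705 ± 815), and then Amacr (2827 ± 52.5), Akr1d1 (2314 ± 628), Cyp7b1 (1936 ± 199) and Cyp7a1 (1098 ± 938). Neighbours in this order overlapped over the 3 vehicle libraries except at 4 steps, between Hsd3b7 and Cyp8b1, between Cyp27a1 and Baat, between Baat and Cyp2c70, and between Cyp2c70 and Amacr. In R159 Baat stood at 10261 ± 2502 per kb, among Cyp27a1 (10498 ± 1477) and Cyp8b1 (9479 ± 2403), while Cyp7b1 (3895 ± 2166), Amacr (3318 ± 676) and Akr1d1 (2301 ± 141) had no clear order. Cyp7b1 ran from 2024 to 6268 per kb over the R159 libraries, a range that holds those of Amacr and Akr1d1, and in R159 replicate 1 it was the lowest of the 3. Cyp7a1, the rate-setting enzyme, had the lowest mean per kb of the 10 in both groups (1084 ± 178 in R159). In vehicle replicate 1, however, it reached 2165 per kb, above the vehicle range of Cyp7b1 (1742 to 2140).

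Cyp7a1, the cholesterol 7-alpha-hydroxylase, was at 4690, 3714 and 5167 in R159 replicates 1 to 3 and at 9031, 3020 and 1690.0 in vehicle replicates 1 to 3. The R159 libraries lay inside the range of the vehicle libraries, which spread far more. The means were close, 4524 ± 741 in R159 and 4580 ± 3911 in vehicle (SD, n = 3), while the log2 fold change was 0.32 (SE 0.50, 95% interval -0.80 to 1.44, limma adjusted p = 0.654). This interval runs from 0.574-fold to 2.72-fold, so with 3 libraries a group the values allow a fall as well as a rise. The vehicle libraries decided the value. Without vehicle replicate 1 it was 0.99 (limma adjusted p = 0.0461), and without vehicle replicate 3 it was -0.22 (adjusted p = 0.738). The within-group SD of Cyp7a1 on the log2 scale, 0.885, was higher than that of 89.5% of tested genes, whose median was 0.327.

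The genes whose log2 values over the 6 libraries were most like those of Cyp7a1 were Nt5c3b, Snx1 and AI662270 (Pearson's r 0.983, 0.974 and 0.973 over 6 libraries), and 5 of 12001 genes compared reached 0.95.

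Cyp8b1, the sterol 12-alpha-hydroxylase, was at 13364, 19531 and 22560 in R159 and at 21031, 16153 and 18788 in vehicle. R159 held both the lowest and the highest library, and the means were 18485 ± 4686 and 18658 ± 2442. The log2 fold change was -0.04 (SE 0.22, 95% interval -0.55 to 0.47, limma adjusted p = 0.912). Its sign turned with the scaling and with the libraries left out, so it has no direction. Closest to its pattern were Trdmt1, Dhrs13 and Tmem125 (Pearson's r 0.988, 0.984 and 0.981 over 6 libraries, with 22 of 12001 genes at 0.95 or above). For neither Cyp7a1 nor Cyp8b1 was this likeness tested against what unrelated genes would give over so few libraries.

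The promoters of Cyp8b1 and Cyp2c70 are shown because both hold a CAAAGTCCA, the core of sites bound by HNF4A, a hepatocyte factor whose mRNA is described below. Of the 10 enzymes 5 matched an entry of the RefSeq promoter table (GRCm38.p6, while the submitters' notes name mm39), and the 250 bases before each start were searched on both strands for CAAAGTCCA, for CAAGGNCA, the extended half-site that LRH-1 (Nr5a2) binds, for the nuclear receptor half-site AGGTCA and for TATAAA. Capitals mark CAAAGTCCA and CAAGGNCA, and both sequences are written on the strand of the gene.
Cyp8b1 (chr9:121916306-121916555, minus strand): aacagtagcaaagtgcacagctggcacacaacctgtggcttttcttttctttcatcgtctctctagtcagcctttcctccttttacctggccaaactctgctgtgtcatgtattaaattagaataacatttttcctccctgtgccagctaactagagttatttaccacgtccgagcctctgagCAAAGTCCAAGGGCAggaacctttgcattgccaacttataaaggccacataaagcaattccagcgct
Cyp2c70 (chr19:40187287-40187536, minus strand): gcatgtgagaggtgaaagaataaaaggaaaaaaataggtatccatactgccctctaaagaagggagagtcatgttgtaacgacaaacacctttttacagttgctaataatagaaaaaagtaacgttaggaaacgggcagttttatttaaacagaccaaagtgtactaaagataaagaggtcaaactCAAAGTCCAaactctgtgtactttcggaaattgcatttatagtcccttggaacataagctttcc
In Cyp8b1 the CAAAGTCCA lies 67 to 59 bases before the start and shares its end with a CAAGGNCA at 60 to 53, and in Cyp2c70 it lies 64 to 56 bases before the start, with an AGGTCA just ahead of it at 74 to 69. A CAAAGTCCA was present in 0.384% of the 32851 promoter windows of the table, a CAAGGNCA in 5.53%, an AGGTCA in 14.02% and a TATAAA in 12.4%. Cyp8b1 held a TATAAA 31 to 26 bases before the start, and Cyp2c70 held one on the opposite strand at 29 to 24. Akr1d1 held 2 AGGTCA on the opposite strand, at 232 to 227 and at 210 to 205, and none of the motifs was found in these windows of Cyp27a1 or Hsd3b7. A match describes the letters and does not show binding.

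In the alternative pathway, the mitochondrial sterol 27-hydroxylase Cyp27a1 was at 17352, 19360 and 22874 in R159 and at 14539, 16034 and 18776 in vehicle. The groups overlapped in 1 pair of libraries only, R159 replicate 1 against vehicle replicate 3, and the log2 fold change was 0.27 (SE 0.18, 95% interval -0.14 to 0.68, limma adjusted p = 0.295). Cyp7b1, the oxysterol 7-alpha-hydroxylase, was at 4384, 7347 and 13576 in R159 and at 4172, 4636 and 3773 in vehicle. R159 replicate 1 lay among the vehicle libraries and the other two lay above them. The mean was 8436 ± 4692 against 4194 ± 432, the log2 fold change 0.86 (SE 0.34, 95% interval 0.08 to 1.64), and limma's adjusted p = 0.0911 missed the threshold. R159 replicate 3 carried much of this difference, which was 0.44 without it (adjusted p = 0.208) and 1.26 without R159 replicate 1 (adjusted p = 0.0112). Cyp7b1 is known as a male-biased gene in mouse liver.

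Both partners that hand electrons to the mitochondrial CYP27A1 were called higher. Fdx1, which encodes mitochondrial ferredoxin, rose from 4942, 4411 and 3738 in vehicle to 5231, 9047 and 9852 in R159, a log2 fold change of 0.84 (SE 0.24, limma adjusted p = 0.0342). Fdxr, the ferredoxin reductase gene, rose from 1056, 1000.1 and 917 to 1324, 1682 and 1972 (0.73, SE 0.18, adjusted p = 0.0203). Neither gene's groups overlapped, which held for 46.2% of all tested genes. Both changes were also past the threshold with the transcript length trend removed (0.94 and 0.63). Both calls were lost without the empirical Bayes trend (adjusted p = 0.0872 and 0.0541) and on leaving out R159 replicate 3 or any 1 vehicle library, and that of Fdx1 also without R159 replicate 2. Por, the electron donor of microsomal P450 enzymes and singled out after its values were seen, was 9893 ± 2730 in R159 and 14888 ± 1912 in vehicle, with overlapping groups (-0.62, limma adjusted p = 0.0638). Ferredoxin and its reductase serve other mitochondrial P450 enzymes and iron-sulphur cluster assembly as well.

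Cyp2c70, which in mice turns chenodeoxycholic acid into muricholic acid, was at 8181, 7182 and 17649.7 in R159 and at 6479.6, 8673 and 9081 in vehicle. R159 replicate 3 stood alone above the other 5 libraries, which overlapped. The log2 fold change was 0.34 (SE 0.32, 95% interval -0.38 to 1.06, limma adjusted p = 0.446), and it was -0.06 without R159 replicate 3. Cyp2c70 belongs to a gene cluster of close relatives, so reads could be divided uncertainly among them. R159 replicate 3 had the highest value of its group for 7 of the 10 enzymes and the lowest for 0.

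Neither of the enzymes that modify the sterol rings was called. Hsd3b7, the 3-beta-hydroxy sterol dehydrogenase, was at 30991, 26498 and 28825 in R159 and at 23234, 26722 and 30756 in vehicle, which overlap (0.10, SE 0.18, 95% interval -0.31 to 0.52, limma adjusted p = 0.701). Its within-group SD on the log2 scale, 0.164, was higher than that of only 15.7% of tested genes. It overlaps 9430064I24Rik on the opposite strand (1072 ± 129 in vehicle and 1557 ± 652 in R159) and Gm49388 on its own strand (332 ± 127 and 659 ± 337), and whether counting used strand is not given in the sources used here. Akr1d1, the 5-beta-reductase, was at 6469, 5774 and 6390.2 in R159 and at 4907, 5681 and 8152 in vehicle (0.02, SE 0.20, 95% interval -0.43 to 0.48, adjusted p = 0.942). All 3 R159 libraries lay inside the vehicle range, and the gene overlaps Gm7463 on the same strand (56.4 ± 6.72 in vehicle and 236 ± 172 in R159).

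Amacr, the racemase of the side chain, was at 6561, 9285 and 9804 in R159 and at 7399, 7136 and 7321 in vehicle. The vehicle libraries were the closest of any of the 10 enzymes (SD 135 on a mean of 7285), and the R159 libraries lay on both sides of them. The log2 fold change was 0.21 (SE 0.18, 95% interval -0.20 to 0.62, limma adjusted p = 0.413), and without R159 replicate 1 it was 0.39 and just past the threshold (adjusted p = 0.0493).

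The last steps of synthesis differed in outcome. Baat, the enzyme that conjugates bile acids to taurine or glycine, was at 15484, 25107 and 19158 in R159 and at 12493, 13251 and 11739 in vehicle, so every R159 library was above every vehicle library. The mean was 19916 ± 4856 against 12495 ± 756 (SD, n = 3). Baat rose by 0.65 on the log2 scale, 1.56-fold (SE 0.20, 95% interval 0.19 to 1.10, limma adjusted p = 0.0428). The call lay close to the threshold. It was kept with the transcript length trend removed (0.55, adjusted p = 0.0379) and without R159 replicate 1 (0.81, adjusted p = 0.0121), and it was lost without any 1 of the other 5 libraries (0.47 to 0.69, adjusted p = 0.0775 to 0.13), with quantile normalization (0.47, adjusted p = 0.0649) and without the empirical Bayes trend (adjusted p = 0.0857). Over all 18 settings that refitted the model its log2 fold change was above 0. Many of these could not have turned the sign. With the groups apart, leaving out a library keeps it, and changes of filter or prior left the value at 0.65.

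Slc27a5, which encodes the bile acyl-CoA synthetase that supplies BAAT, was at 30838, 28493 and 46426 in R159 and at 26527, 31783 and 45021 in vehicle. The groups overlapped, and replicate 3 was well above the other two in both. The log2 fold change was 0.03 (SE 0.27, 95% interval -0.57 to 0.64, limma adjusted p = 0.936). The difference between Baat and Slc27a5 was not itself tested.

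**Figure D2:**
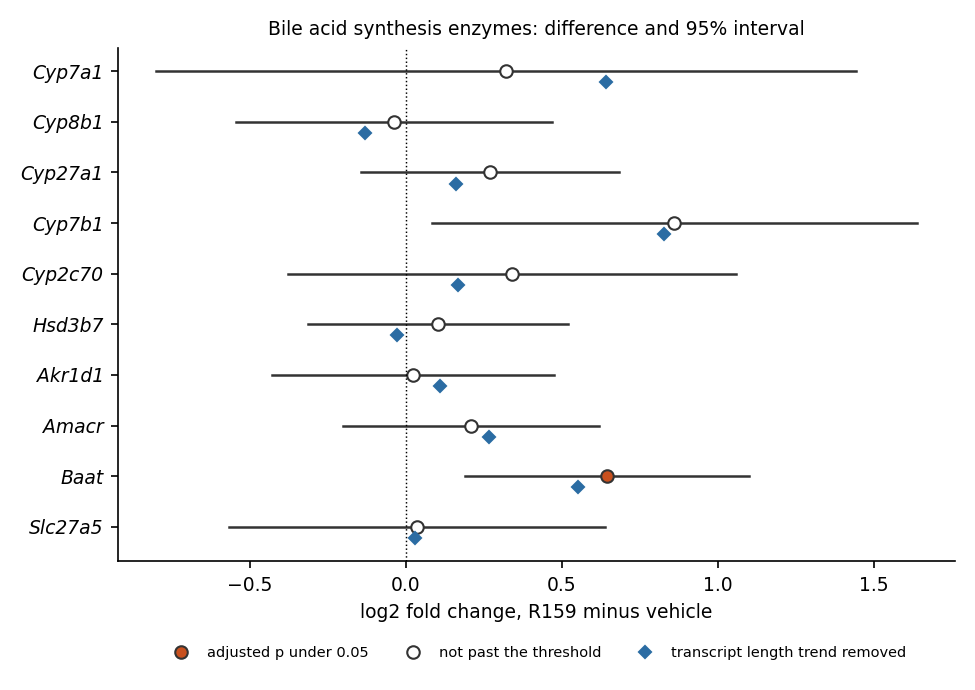
Log2 fold change (R159 minus vehicle, circles) with its 95% interval (lines) for each enzyme, and the value after the transcript length trend was removed (diamonds). Filled circles passed an adjusted p of 0.05. Only Baat, at 0.65, is filled, and the interval of Cyp7a1 is the widest.

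Ratios within a library do not depend on how the library was scaled, and 3 of them were computed to ask whether the balance of the pathways differed. These ratios were not divided by transcript length, so only their differences between groups have a meaning. The log2 ratio of Cyp8b1 to Cyp7a1, the balance of 12-alpha-hydroxylation against entry into the classic pathway, took the values 1.51, 2.39 and 2.13 in R159 replicates 1 to 3, and in vehicle 1.22, 2.42 and 3.47 (R159 minus vehicle -0.36, exact permutation test, two-sided, p = 0.6). All R159 libraries lay within the vehicle range. The log2 ratio of Cyp7b1 to Cyp7a1, alternative against classic hydroxylase, was -0.10, 0.98 and 1.39 for R159, and for vehicle -1.11, 0.62 and 1.16 (difference 0.54, exact permutation p = 0.6). The log2 ratio of Cyp7b1 to Cyp27a1 was -1.99, -1.40 and -0.75 for R159, and for vehicle -1.80, -1.79 and -2.31 (difference 0.59, exact permutation p = 0.3). For 3 samples against 3 the smallest p this test can give is 0.1, and over the 3 ratios the Benjamini-Hochberg value was 0.6 for each. A ratio does not cancel the transcript length trend. With this trend removed the differences were -0.77, 0.19 and 0.67 in the same order (exact permutation p = 0.4, 0.9 and 0.3). No difference in balance was detectable at this size.

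**Figure D3:**
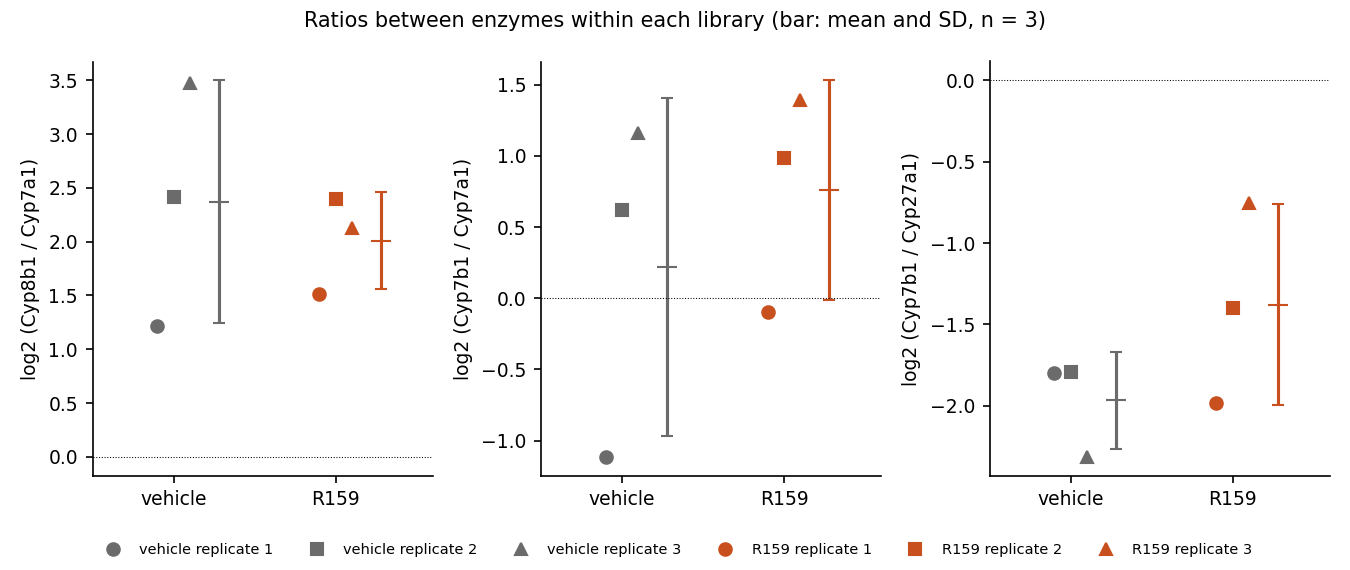
Log2 ratio between 2 enzymes in each library (vertical axes) for 3 enzyme pairs, with a marker shape for each replicate and the group mean and SD (n = 3) beside the points. The groups overlap in all 3 panels, and vehicle replicate 1 has the lowest Cyp8b1 to Cyp7a1 and Cyp7b1 to Cyp7a1 ratios.

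Among 14 other genes of bile acid synthesis, limma called 2 higher, Fdx1 and Fdxr, and 0 lower, with 2 higher and 4 lower at an unadjusted p under 0.05. The background over all tested genes was 12.8% called higher and 14.2% lower, and 2 of 14 is near the former. The median log2 fold change of the 14 was -0.45, and -0.30 with the length trend removed. No gene of the list for peroxisomal side-chain shortening was called, and their values went both ways. The fatty acid and bile acid carrier Abcd3 was 19989 ± 1449 in R159 and 28777 ± 3003 in vehicle (-0.52, limma adjusted p = 0.0506), the oxidase Acox2 9111 ± 2331 against 13285 ± 1296 (-0.57, adjusted p = 0.0654) and the D-bifunctional protein gene Hsd17b4 25762 ± 6122 against 38157 ± 1777 (-0.59, adjusted p = 0.0635). The groups did not overlap for these 3 genes, as for 46.2% of all tested genes. With the length trend removed the values of the 3 were -0.29, -0.44 and -0.51 (adjusted p = 0.161, 0.12 and 0.0769). Scp2, the thiolase and sterol carrier gene, gave -0.38 (adjusted p = 0.342), and its groups did not overlap either, with R159 lower. The acyl-CoA synthetase gene Slc27a2 gave 0.01 (adjusted p = 0.98), and the thioesterase gene Acot8 gave 0.34 (adjusted p = 0.186) but -0.19 with the length trend removed. These 6 genes were singled out after their values were seen. Cyp2a12, also singled out this way, was lower in every R159 library than in any vehicle library. Its log2 fold change was -0.55 (limma adjusted p = 0.136), and -0.74 with the length trend removed, past the threshold (adjusted p = 0.0327).

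Of 18 regulators of bile acid synthesis, 2 rose and 3 fell, a share close to the 27.0% of all tested genes that were called in either direction. Hnf4a, the hepatocyte factor that activates Cyp7a1 and Cyp8b1, fell from 27755, 35511 and 38074 in vehicle to 24314, 18094 and 21164 in R159 (-0.67, SE 0.20, limma adjusted p = 0.0382). Klb, the co-receptor with FGFR4 for the intestinal hormone FGF15, fell from 1080.5, 1409 and 2198 to 1033, 710.3 and 607 (-0.97, SE 0.29, adjusted p = 0.0362), while Fgfr4 itself gave -0.12 (95% interval -0.58 to 0.35, adjusted p = 0.698). Rora, a nuclear receptor that drives Cyp7b1 and Cyp8b1, fell by 0.77 on the log2 scale (adjusted p = 0.0182). These 3 transcripts are long (4362, 3540 and 10878 nt), and none of the 3 calls was kept with the transcript length trend removed (-0.33, -0.73 and -0.29, adjusted p = 0.16, 0.0854 and 0.242). All 3 calls were also lost without vehicle replicate 3 (adjusted p = 0.13, 0.118 and 0.0685) and without the empirical Bayes trend (adjusted p = 0.068, 0.089 and 0.0541). Those of Hnf4a and Klb were lost as well without vehicle replicate 2 (0.145 and 0.0823), R159 replicate 2 (0.0929 and 0.092) or R159 replicate 3 (0.0718 and 0.1), and that of Hnf4a under upper quartile scaling (0.0644), all as adjusted p. The length correction also added a call. Mafg, singled out after its values were seen, was higher in every R159 library than in any vehicle library. Mafg was not called in the main fit (0.48, limma adjusted p = 0.139) but was with the length trend removed (0.88, adjusted p = 0.0125).

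Nr1i3, which encodes the xenobiotic receptor CAR, rose from 8421, 9630 and 6176 in vehicle to 26246, 19286 and 11909 in R159 (1.196, SE 0.29, limma adjusted p = 0.0179), and 1.34 with the length trend removed (adjusted p = 0.0178). Its adjusted p was 0.0692 without vehicle replicate 3, 0.0518 without R159 replicate 2 and 0.0577 without the empirical Bayes trend. Nr1h3, the oxysterol receptor LXR-alpha, which activates Cyp7a1 in rodents, rose from 5136 ± 158 to 6946 ± 410.4 (0.43, SE 0.14, adjusted p = 0.0464), with a call that 7 of 18 refits kept. The feedback receptor FXR gene Nr1h4 (0.23, 95% interval -0.18 to 0.63, adjusted p = 0.368) and its target Nr0b2 (0.52, 95% interval -0.48 to 1.52, adjusted p = 0.406) were not called. Nr0b2 was at 913, 2115 and 1331 in R159 and at 470, 1145 and 1619 in vehicle, which overlap. Nr5a2, which encodes LRH-1, was 1927 ± 349 in R159 and 2990.1 ± 680.3 in vehicle, with groups apart and an adjusted p of 0.0521 just outside the threshold. It was -0.63 on the log2 scale and -0.25 with the length trend removed.

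Of 14 bile acid and sterol transporters, 3 fell and 0 rose, where 14.2% of all tested genes were called lower and 27.0% in either direction. Abcc3, a basolateral exporter of conjugates, fell from 21106, 21856 and 26809 in vehicle to 7607, 8461 and 8100 in R159 (-1.52, SE 0.16, limma adjusted p = 0.00299). Abcc4, a second basolateral exporter, fell from 409, 1069 and 303 to 102, 80.5 and 76.0 (-2.56, SE 0.43, adjusted p = 0.00512). Both were called in all 18 refits. The flippase gene Atp8b1 fell by 0.76 (adjusted p = 0.0146), which became -0.25 with the length trend removed (adjusted p = 0.366), and the call was also lost without vehicle replicate 2 or 3 (adjusted p = 0.0628 and 0.0624). The organic anion uptake carrier Slco1a1, singled out after its values were seen, was at 1056, 1781 and 6089.5 in R159 and at 969.6, 1025 and 167 in vehicle. Its groups were apart and its log2 fold change of 2.03 was not called (SE 0.77, adjusted p = 0.0773). The main uptake carrier Slc10a1 was 24901 ± 8538 in R159 against a vehicle mean of 22089 ± 4615 (log2 fold change 0.14, adjusted p = 0.738), and the canalicular bile salt pump Abcb11 24031 ± 2167 against 28473 ± 5088 (adjusted p = 0.4).

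**Figure D4:**
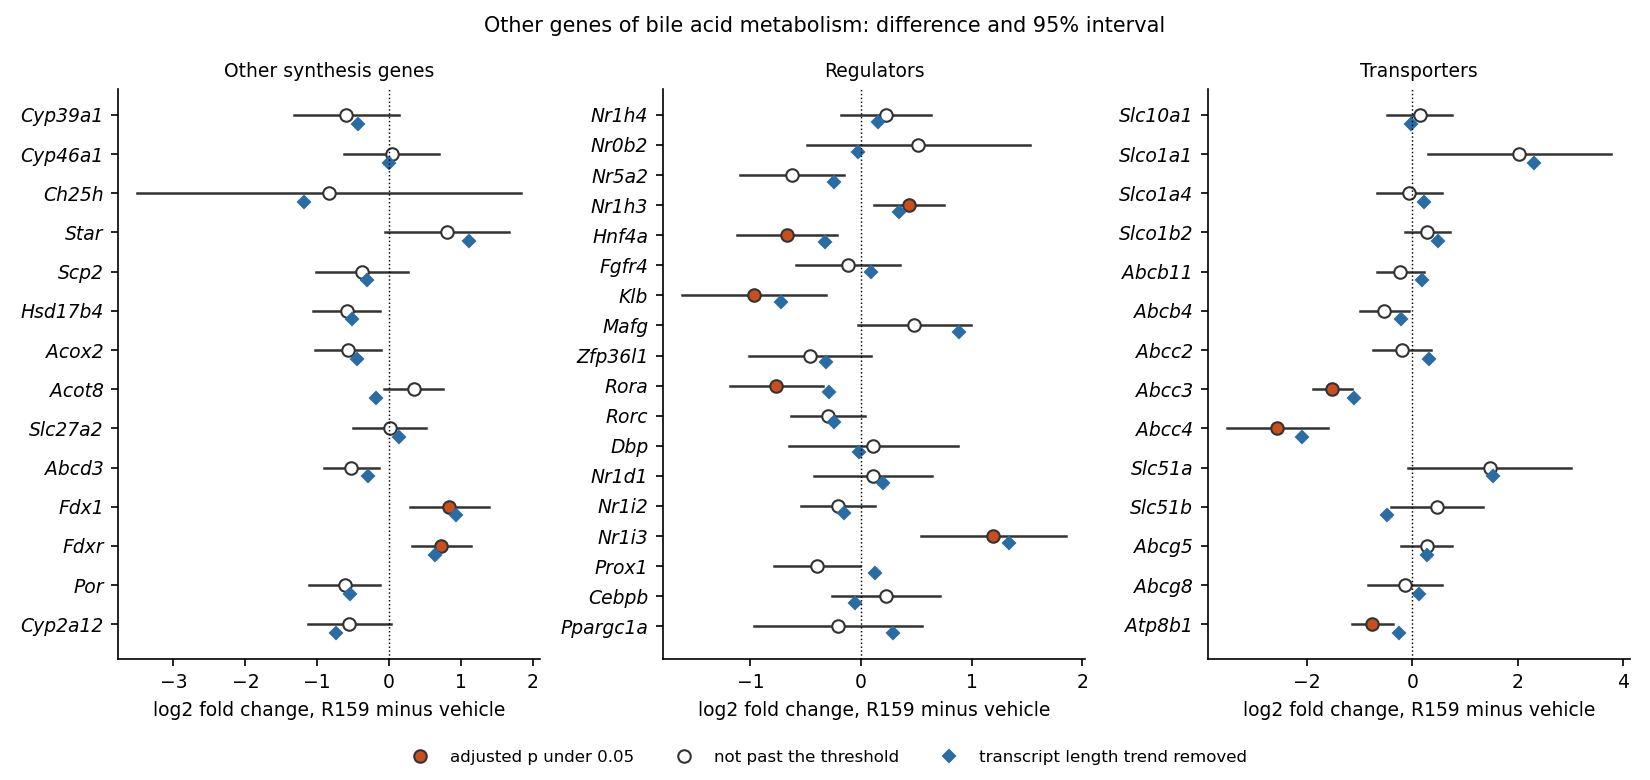
Log2 fold change (R159 minus vehicle) with its 95% interval for 14 other synthesis genes, 18 regulators and 14 transporters, with diamonds for the value after the transcript length trend was removed. Filled circles passed an adjusted p of 0.05, and Abcc4 at -2.56 and Abcc3 at -1.52 lie farthest to the left among them.

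The enzymes are hepatocyte genes. Their summed value ran from 138314 to 192429 over the R159 libraries and from 129814 to 155099.6 in vehicle, and that of 9 measured hepatocyte markers from 4824951 to 7985884 and from 4136932 to 5986964, with 0 of the 9 called higher and 2 lower. Alb made up most of the marker sum, and the median log2 fold change of the 9 was 0.02. The 2 lower calls, of Hnf4a and of Apob (named after its values were seen), were lost with the length trend removed (adjusted p = 0.16 and 0.102). Of all tested genes 12.8% were called higher, 14.2% lower and 27.0% in either direction. Those shares apply to the marker counts of each cell type here. In bulk tissue, a change in the number of hepatocytes and a change in RNA per hepatocyte cannot be told apart. Of 5 erythroid markers 4 were called higher in R159, with sums of 29666 to 42793 against 10073 to 14822, and with the length trend removed 2 of those calls were lost, Hba-a1 (adjusted p = 0.0618) and Hbb-bs (0.0765). Macrophage markers went both ways, with 2 of 7 called lower, 0 higher, 4 log2 fold changes above 0 and a median of 0.20. Their sums were 9633 to 11736 against 11586 to 17962, and Marco (3.07) and Timd4 (2.09), chosen after their values were seen, were higher in every R159 library than in any vehicle library without being called (adjusted p = 0.0619 and 0.0872). Of 6 cholangiocyte markers 5 were tested, and 1 was called higher and 0 lower. The sums, 2052 to 4141 against 4140.0 to 12107, were mostly Spp1, at 2564 ± 847 in R159 and 6684 ± 4243 in vehicle. Of the 5 log2 fold changes 2 were above 0, Krt7, the called gene (1.32), and Krt19 (0.98). These 3 genes were named after their values were seen. Endothelial markers had 0 of 6 called (5209 to 6744 against 5576 to 7850), stellate markers 2 of 6 lower (9437 to 20224 against 13345 to 22216), and lymphocyte markers 0 of 6 (328 to 539 against 239 to 378). Of 5 genes chosen as ileal markers 2 were tested, and Fabp2, which liver also expresses, was called higher. With the length trend removed the calls of Fabp2 and the stellate gene Reln were lost (adjusted p = 0.108 and 0.282). Those of Krt7, Col1a1, Adgre1 and Cd5l were kept. Slc10a2 was then called higher (adjusted p = 0.0223), and Spp1 and Cd68 lower (0.0279 and 0.0106). The genes in this comparison were named after their values were seen. The part of these cell types in the values of the enzymes was not tested.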

How the data were processed

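Poly(A) RNA of 6 liver samples was sequenced as paired-end reads of 50 bp from stranded libraries (labels' protocols). Tools named in the submitters' processing notes are STAR 2.7.8a, FastQC 0.11.9, cutadapt, R 4.2.3 and DESeq2 with the version 3.5, the build named is mm39, and neither counter nor annotation is named in the sources used here. The deposited values, 1 table per sample, are a signal: fractional gene counts that the authors normalised, as the names of the deposited files state. Low values cluster at multiples of 1 step per library, which gave the depths, but the share of low values (under 200 reads) within 0.02 of a whole read was 67.5% to 75.6%, so no count model was used.

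Genes with a mean of at least 10 were kept (16594), and log2(value + 1) was fitted by group alone with limma 3.58.1 (R 4.3.3) and a trended empirical Bayes prior. The fit was also run on simulated data with equal noise in both groups and few changed genes. That run cannot vouch for the fit under the unequal spread of these groups. Transcript lengths came from another mouse build (GENCODE M21, 13501 genes, 81.4% of those tested) and served for levels per kb and for a lowess correction (span 0.3) per library. The text names the 10 enzymes, called genes of 3 related lists, 8 further genes fixed by name, and 3 genes most like Cyp7a1 and Cyp8b1 among those of mean at least 100; other genes are named where said to be chosen after their values were seen. The members and lists were chosen with earlier results of these data known. Ratios were tested by exact permutation. Alternatives were scaling, pseudocount, filter, the prior, weights per sample, a threshold of 0.1, a replicate block, transcript length and leaving out each library. Figures were drawn with matplotlib 3.10.9.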

Additional observations from a re-analysis of the deposited data

How the results depend on the processing

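The enzymes called higher, 1 in the report, were 0 with quantile normalization or without the empirical Bayes trend, 2 with sample weights or at a threshold of 0.1, and 0 to 3 on leaving out a library; the count called lower was 0 throughout. Genes called over the whole table, 4479, were 2520 with the length trend removed and 1854 to 5420 on leaving out a library, the 3 lowest without a vehicle library each. Deviations of same-numbered libraries from their group means correlated at -0.098, 0.031 and 0.108, and those of differently numbered libraries at -0.138 to 0.098. With 3 libraries a group, this cannot show whether the numbers pair anything. With a replicate block 3945 genes and 1 enzyme were called, and the calls of Hnf4a, Klb and Nr1h3 were lost (adjusted p = 0.0532, 0.0526 and 0.0903). Upper quartile scaling moved the median of all genes to 0.12 and the share of calls that were higher from 47.4% to 61.4%, and scaling to the total without the 20 highest genes moved them to -0.11 and 37.6%.

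Log2 fold changes that turned sign were of genes not called. Under upper quartile scaling Cyp8b1 was 0.085 and Fgfr4 0.007, under quantile normalization Slc27a5 was -0.09, and under the total without the 20 highest genes Hsd3b7 was -0.007, Akr1d1 -0.086 and Slc27a5 -0.075. With sample weights Cyp8b1 was 0.174. With the length trend removed Hsd3b7 was -0.028, Nr0b2 -0.025, Fgfr4 0.091, Slc10a1 -0.025 and Abcb11 0.176. Leaving out each library gave -0.22 to 0.99 for Cyp7a1, -0.20 to 0.18 for Cyp8b1, -0.06 to 0.59 for Cyp2c70, -0.13 to 0.23 for Akr1d1, -0.18 to 0.25 for Slc27a5, -0.30 to 0.042 for Fgfr4 and -0.11 to 0.39 for Slc10a1. The ratio difference of Cyp8b1 to Cyp7a1 then ran from -0.94 to 0.19, and that of Cyp7b1 to Cyp7a1 from -0.13 to 1.01. The cause of these turns was not tested. With 3 libraries a group, the spread between libraries limits the precision.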
